A study of Mus musculus with 24 samples.

Results

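Alpha granules are the most numerous storage granules of megakaryocytes and platelets, and 10 genes that encode their cargo, their membrane or their assembly were followed across the series. The genes were Pf4, Ppbp, Vwf, Selp, Thbs1, Serpine2, Nbeal2, Vps33b, Mmrn1 and F13a1. They were chosen by name from the known biology of the granule, out of 47069 gene identifiers in the count table. Earlier results of these data were known when they were chosen. All 10 were found in the table, and all 10 passed the filter on low counts that left 13419 genes for testing.

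Megakaryocytes fill alpha granules both with proteins they make themselves and with proteins taken up from their surroundings. Chemokines, adhesive glycoproteins, coagulation proteins and protease inhibitors are packed into the granule lumen, while P-selectin sits in the granule membrane and reaches the cell surface when the platelet is activated. Sorting into the granule needs a small set of proteins that includes NBEAL2, whose loss causes gray platelet syndrome, and VPS33B with its partner VIPAS39, whose loss causes a disorder with kidney, joint and liver defects and abnormal platelets. The transcription factors GATA1, FLI1 and GFI1B act on many megakaryocyte genes, among them several granule genes.

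The cells were mouse fetal liver cells called Gata1s-FLCs in the labels, taken at E12.5-13.5 from the Fezh/J line on a B6J.129(Cg) background, whose Gt(ROSA)26Sor locus carries cas9* and EGFP under the CAG promoter. Every library, controls included, carried the transgene sgGata1, a guide RNA against Gata1, so all comparisons lie within Gata1-edited cells and none has an unedited reference. The second transgene was either miR-125b or the control miR-ctrl. Doxycycline at 1 µg/mL was given for 48 h (Day2), 10 days (Day10) or 13 days (Day13), and in the last condition (Day13WD) it was withdrawn on day 10 and the cells were sampled on day 13. The 8 groups held 3 libraries each, 24 in all, numbered 1 to 3 in every group. The labels do not say whether libraries of a group came from separate animals, cultures or cell pools, so p-values measure the spread between these libraries, which may be technical. The labels also do not state which promoter drives either transgene, or whether the cells were a single clone.

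The genes lie on 7 chromosomes of the GENCODE M21 annotation (GRCm38). The chemokine genes Pf4 (chr5:90772435-90773383) and Ppbp (chr5:90768518-90770063) are neighbours on the plus strand. The adhesive glycoprotein genes are Vwf (chr6:125546774-125686679), Mmrn1 (chr6:60924976-60989378) and Thbs1 (chr2:118111876-118127133), all on the plus strand, and the membrane receptor gene Selp is at chr1:164115264-164150026 on the plus strand. Serpine2 (chr1:79794197-79861180) and F13a1 (chr13:36867178-37050244), a protease inhibitor and a coagulation enzyme, are on the minus strand. Of the assembly genes, Nbeal2 is at chr9:110624789-110654161 on the minus strand and Vps33b at chr7:80269649-80291754 on the plus strand.

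The mature miR-125b-5p strand is shown because miR-125b was the second transgene in 4 of the 8 groups, although microRNA levels were not examined here. Its sequence from RefSeq (GRCm38.p6) is the same for both mouse copies, Mir125b-1 on chromosome 9 (chr9:41581940-41581961, plus strand) and Mir125b-2 on chromosome 16 (chr16:77646279-77646300, plus strand). The capitals mark the seed, bases 2 to 8, which pairs with target transcripts.
mmu-miR-125b-5p: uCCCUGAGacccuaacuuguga
Of the 10 granule genes, only Nbeal2 held a match to all 7 bases of this seed in its longest annotated 3′ UTR. That 3′ UTR is 336 bases long in GENCODE M21. The site starts at base 99 of that 3′ UTR, in the last part of the transcript on the minus strand of chromosome 9 (GRCm38, chr9:110625009-110625037). It reads as follows, with the 7 bases complementary to the seed in capitals.
Nbeal2 3′ UTR site: ccaccctccagCTCAGGGattggtagatg
An A follows the match, which makes it an 8-base site. Among 20866 genes with an annotated 3′ UTR, 14.2% held at least 1 such 7-base match, so 1 match among 10 genes is near the share over all genes. A match is a description of letters and was not tested as a binding site.

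Promoters are shown for Pf4, Ppbp and Mmrn1, the genes whose values moved together most closely across libraries (2371 bases separate the end of Ppbp from the start of Pf4 on chromosome 5). The sequences are from RefSeq (GRCm38.p6) and run from 250 bases before to 50 bases after the annotated start, 5′ to 3′ on the gene's strand, which is the plus strand for these 3 genes. Both strands were searched for a GATA motif (AGATAA or TGATAA) and an ETS motif (CCGGAA or CAGGAA), and the matches are in capitals, a reverse-strand match appearing as its complement (TTCCGG or TTCCTG). The windows are chr5:90772185-90772484 for Pf4, chr5:90768268-90768567 for Ppbp and chr6:60944067-60944366 for Mmrn1, whose RefSeq start lies inside the longer GENCODE gene.
Pf4: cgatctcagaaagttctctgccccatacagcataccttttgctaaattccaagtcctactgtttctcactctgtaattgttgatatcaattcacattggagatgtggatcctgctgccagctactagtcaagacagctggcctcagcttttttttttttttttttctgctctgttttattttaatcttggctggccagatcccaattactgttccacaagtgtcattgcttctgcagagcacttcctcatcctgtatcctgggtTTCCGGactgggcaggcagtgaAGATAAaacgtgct
Ppbp: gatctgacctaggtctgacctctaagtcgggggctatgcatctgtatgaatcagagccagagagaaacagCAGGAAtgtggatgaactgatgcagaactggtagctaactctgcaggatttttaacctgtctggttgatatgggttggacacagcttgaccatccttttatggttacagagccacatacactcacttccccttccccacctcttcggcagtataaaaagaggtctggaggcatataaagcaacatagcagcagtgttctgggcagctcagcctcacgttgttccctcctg
Mmrn1: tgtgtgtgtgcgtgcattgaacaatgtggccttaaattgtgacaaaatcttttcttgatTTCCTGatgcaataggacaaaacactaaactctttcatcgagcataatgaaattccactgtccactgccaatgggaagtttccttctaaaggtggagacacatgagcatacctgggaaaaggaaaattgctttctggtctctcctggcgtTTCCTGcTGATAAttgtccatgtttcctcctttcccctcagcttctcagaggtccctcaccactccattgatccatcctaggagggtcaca
Pf4 and Mmrn1 held both motifs, and Ppbp held an ETS match and no GATA match in this window. In Mmrn1 the GATA match ended 29 bases before the start, 1 base after an ETS match, and in Pf4 both matches lay within the 50 bases after the start. Over 32851 RefSeq promoters of the same length, 18.6% held a GATA match, 41.4% an ETS match and 6.86% both. RefSeq entries were matched for 7 of the 10 genes. Those of Serpine2 and F13a1 held an ETS match, and those of Selp and Nbeal2 held neither motif. Vwf, Thbs1 and Vps33b had no entry in the table used.

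The libraries held 14694900 to 23755245 counts each, and values are given as CPM (counts per 1000000 counts of the library) after TMM scaling, a between-library scaling on the bulk of genes. Megakaryocyte identity was checked on a list of 20 surface and cytoskeletal genes, whose summed level was 3492 to 6836 CPM in every library. Gata1, the edited gene, was listed at 261 to 375 CPM as group means, but with no unedited library these levels do not check the editing. Arid3a, the transcription factor that the series title names as a target of miR-125b, was used to check the second transgene. Its group means were 34.1 ± 6.56 CPM with miR-125b against 59.7 ± 8.15 with control at day 2, and 31.8 ± 1.70 against 58.5 ± 10.98 at day 10 (SD, n = 3). In the libraries labelled as withdrawn, Arid3a was 31.2 ± 4.45 CPM with miR-125b against 69.5 ± 6.20 with control, while with doxycycline labelled as continued to day 13 it was 52.2 ± 6.15 against 61.0 ± 11.2. At day 2 the lower mean with miR-125b did not pass the test, where edgeR called 0.0% of all genes. Arid3a fell at day 10 (log2 fold change -0.88, edgeR adjusted p = 0.0230) and in the libraries labelled as withdrawn (-1.15, adjusted p = 0.00435), and not in those labelled as continued (-0.22, adjusted p = 0.999). The level of Arid3a thus goes against what continued and withdrawn doxycycline would be taken to mean for a miR-125b target, so both day 13 conditions are named below by their labels and no direction for withdrawal itself is drawn from them.

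The granule genes covered a very wide range of levels. Per kilobase of exon, Pf4, the heparin-binding chemokine platelet factor 4, was far above the rest, with a median of 2333 CPM per kb over the 24 libraries and a level above 99.6% of tested genes. Ppbp, the precursor of the neutrophil-attracting chemokine CXCL7, followed at a median of 58.2 CPM per kb. Vps33b, Serpine2 and Nbeal2 lay close together at medians of 23.2, 21.9 and 20.2 CPM per kb.

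The adhesive proteins were lower. Thbs1 (thrombospondin, a matrix-binding glycoprotein) had a median of 8.84 CPM per kb and Mmrn1 (multimerin, the factor V carrier of the granule) 7.36. F13a1, the A subunit of the fibrin-crosslinking factor XIII, had a median of 1.48 CPM per kb, Vwf, the glycoprotein that tethers platelets to collagen, 0.875, and Selp, which encodes P-selectin, 0.248. Selp stood above only 13.3% of tested genes and Vwf above only 22.1%. Selp rested on 8 to 129 counts per library, so its single-library values carry the largest counting error of the set, whereas Pf4 rested on 16637 to 69202 counts.

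The spread across libraries also differed between members. Thbs1 varied 53.6-fold from its lowest to its highest library, F13a1 43.5-fold, Ppbp 19.6-fold and Selp 16.2-fold. Nbeal2 and Vps33b, the assembly genes, varied 1.97-fold and 2.07-fold. In the order of group means, neighbouring groups overlapped in their single values for every member except at 2 places. For Thbs1, the miR-125b libraries at day 2 (55.3 to 60.0 CPM) lay above the next group, miR-125b labelled day 13 (11.46 to 52.1 CPM). For Serpine2, the miR-125b libraries at day 2 (228 to 293 CPM) lay above the next group, miR-125b labelled as withdrawn (197 to 223 CPM). How many of all tested genes have such gaps was not counted.

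**Figure D1:**
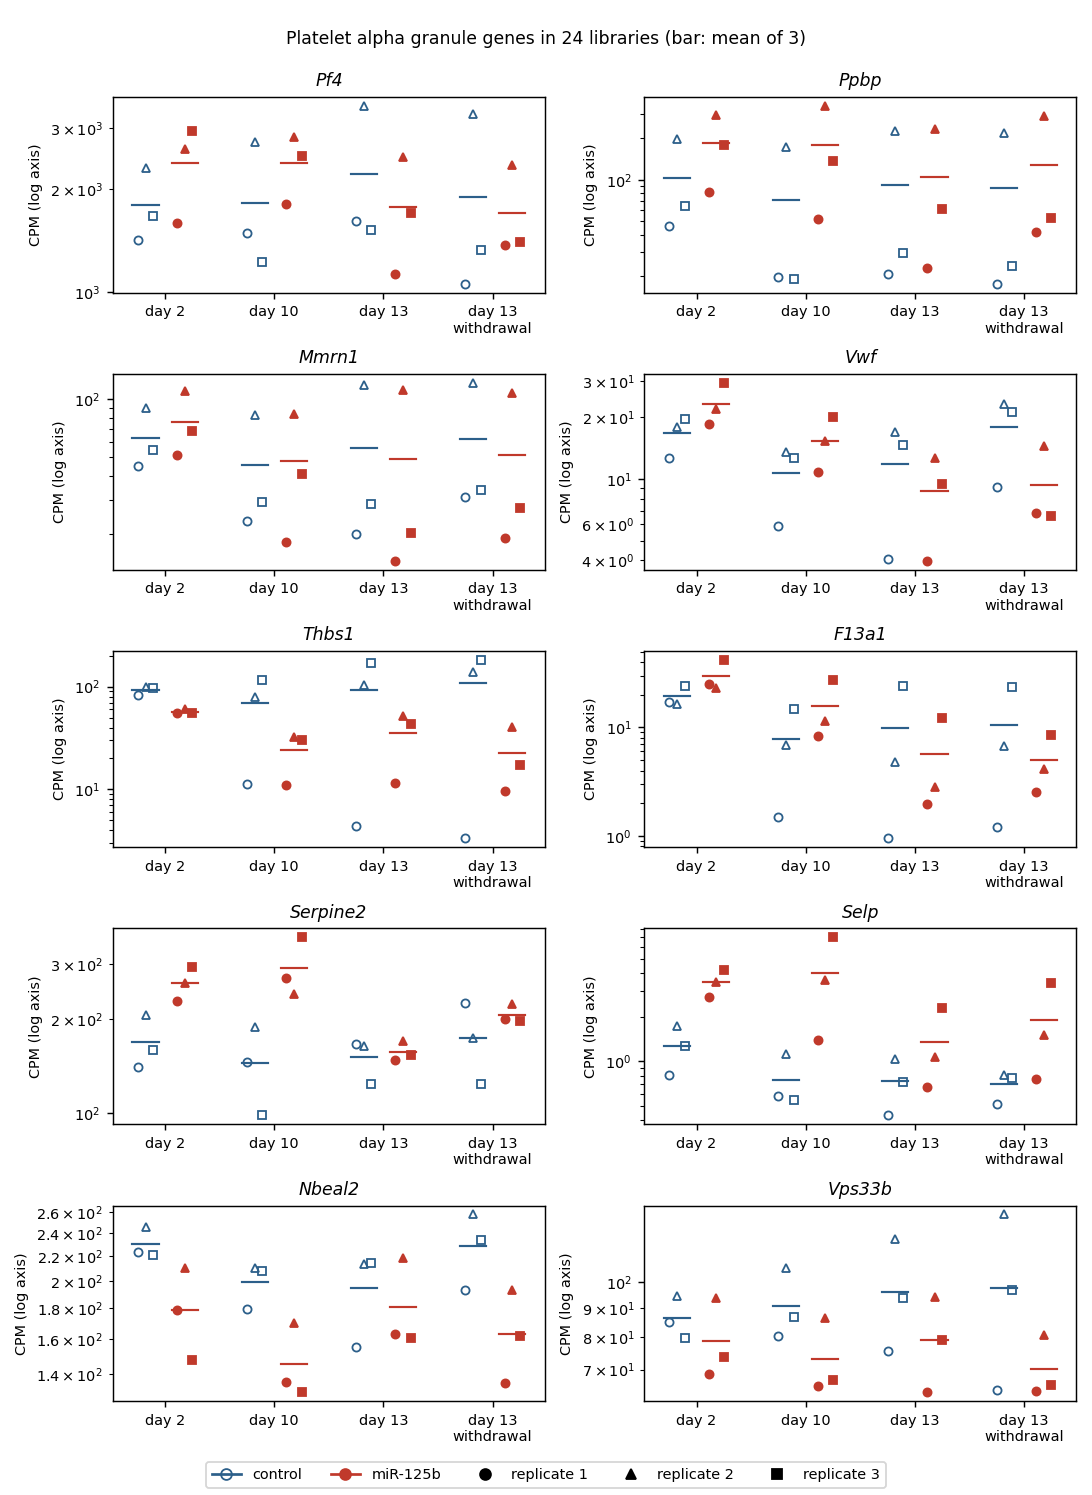
Level of each alpha granule gene in CPM (log axis) in the 24 libraries, by day and doxycycline condition; blue open symbols are control, red filled symbols miR-125b, the symbol shape is the replicate number and the bar is the mean of 3 libraries. Replicate 2 (triangles) is the highest library of Ppbp, Mmrn1 and Vps33b in all 8 groups, and miR-125b and control libraries separate for Serpine2 and Selp at days 2 and 10.

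Much of that spread followed the replicate number. Replicate 2 was the highest of its group in 8 of 8 groups for Ppbp, Mmrn1 and Vps33b, and in 7 of 8 for Pf4 and Nbeal2. Replicate 1 was the lowest in 8 of 8 groups for Thbs1 and Mmrn1. F13a1 had another order, with replicate 3 the highest in 8 of 8 groups.

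For Ppbp, replicate 2 libraries lay between 174 and 345 CPM over the 8 groups, replicate 1 between 17.5 and 81.5, and replicate 3 between 18.9 and 178. Replicate 2 of every group was thus at or above nearly all other libraries, whatever the transgene or day. Mmrn1 was at 83.2 to 121 CPM in replicate 2, 14.5 to 51.2 in replicate 1 and 20.1 to 68.1 in replicate 3, with no overlap between replicate 2 and the others. Pf4 was at 2305 to 3488 CPM in replicate 2, 1058 to 1811 in replicate 1 and 1226 to 2954 in replicate 3.

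The sum of squares of log2 CPM was divided into a part between the 8 groups, a part between replicate numbers and a rest. The part between replicate numbers was 75.8% for Mmrn1, 71.1% for Ppbp, 63.5% for Pf4 and 53.7% for Vps33b. It was 48.1% for Thbs1, 41.3% for F13a1, 39.3% for Vwf and 26.6% for Nbeal2. Selp (19.4%) and Serpine2 (4.31%) were the members with the smallest part. The median was 44.7% over the 10 members and 18.3% over all tested genes, while the part between groups was similar, 37.4% against 36.5%. Serpine2 (68.8%), Selp (67.1%) and Nbeal2 (59.4%) had the largest part between groups.

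**Figure D2:**
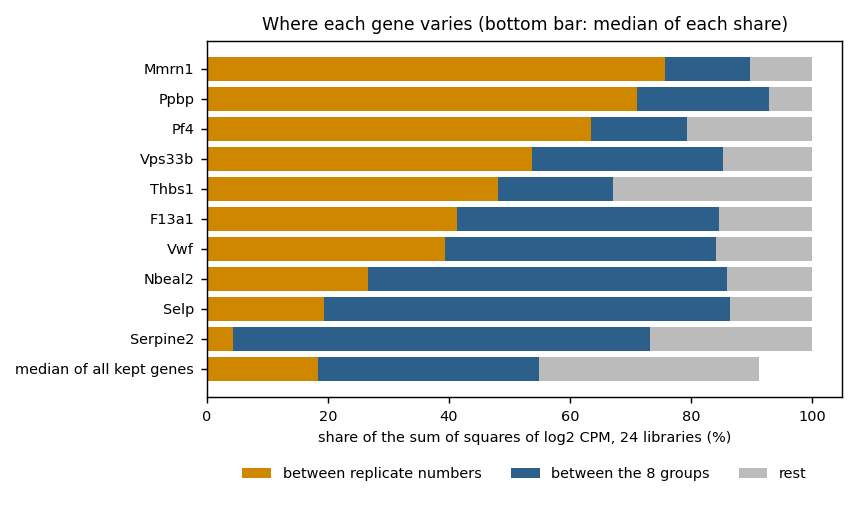
Share (%) of each gene's sum of squares of log2 CPM over 24 libraries that lies between replicate numbers (orange), between the 8 groups (blue) and in the rest (grey). Mmrn1, Ppbp and Pf4 have over 60% between replicate numbers, Serpine2 4.31%, and the bottom bar gives the median of each share over all tested genes, which need not add to 100%.

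After group means were removed, 40 of the 45 pairs of members had a positive Pearson correlation over the 24 libraries, which share depth and batch within a library, so these values are descriptions. The closest pairs were Ppbp with Mmrn1 (r = 0.96) and Pf4 with its neighbour Ppbp (r = 0.96), followed by Pf4 with Mmrn1 (0.89) and Vwf with Thbs1 (0.88). Serpine2 was in the lowest pairs, with r = -0.44 for F13a1 and -0.38 for Thbs1. Of all tested genes, those most like the mean standardised log2 CPM of the 10 members over the 24 libraries were Stard10 (r = 0.97), Gsn (0.97), Cmah (0.96), Arap1 (0.96), Rhoc (0.96), Tesc (0.95), Ltbp1 (0.95), Syne1 (0.95), Gucy1a1 (0.94) and Vldlr (0.94). With group means removed the first were Gsn (0.98), Ctsd (0.98), Stard10 (0.98), Vill (0.98) and Cmah (0.97), and the platelet glycoprotein gene Gp5 was the ninth (0.97).

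The first comparison asked how miR-125b changed the granule genes at each time point. In the model without a replicate block, Serpine2 of the 10 members rose at day 10, and none passed the test at day 2 or in either day 13 condition. With the replicate number added to the model as a block, Serpine2, Selp, Ppbp and Nbeal2 passed at day 10. Nbeal2 and Vps33b then passed in the libraries labelled as withdrawn. Selp had a larger fold change than Serpine2 in all 4 conditions but missed the threshold in each without the block. At day 10 it passed under the block and some other alternatives given below. The signs were mixed: at days 2 and 10 Pf4, Ppbp, Vwf, Mmrn1, F13a1, Serpine2 and Selp had positive estimates, and the cargo gene Thbs1 and the assembly genes Nbeal2 and Vps33b had negative ones. Several of these estimates were smaller than their standard errors in the model without the block. Those errors include the differences between replicate numbers. Where the block is not named below, estimates and errors are from the model without it. That of Mmrn1 at day 10 (0.08) changed sign in 4 of 9 fits that left out libraries.

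Serpine2 encodes protease nexin, a serpin that inhibits thrombin and plasmin. At day 10 the miR-125b libraries 1 to 3 were at 271, 241 and 365 CPM and the control libraries at 146, 189 and 98.6 CPM. All 3 miR-125b libraries were above all 3 controls, and the means were 292 ± 64.7 and 144 ± 45.1 CPM (SD, n = 3). The log2 fold change was 1.02 ± 0.22 (SE), with an edgeR adjusted p of 0.0413. It was the only 1 of 10 members called, against 0.872% of all tested genes in that comparison. The edgeR call was lost without miR-125b replicate 1 (adjusted p = 0.104) or 3 (0.304), and without control replicate 1 (0.141) or 3 (0.203), while the fold change stayed between 0.80 and 1.26 in the 6 fits that left out a single library.

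At day 2 Serpine2 was at 228, 260.5 and 293 CPM with miR-125b and 140.4, 206 and 159 CPM with control, again without overlap. Its fold change was 0.63 ± 0.22 on the log2 scale and did not pass (edgeR adjusted p = 0.898). Labelled day 13, Serpine2 was at 148, 169.7 and 154 CPM with miR-125b and 167, 164 and 124 with control, which overlapped, with a log2 fold change of 0.05 ± 0.22. Labelled as withdrawn, it was at 199.7, 223 and 197 CPM with miR-125b and 225, 174 and 124 with control, which also overlapped, with a fold change of 0.25 ± 0.22.

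Selp encodes P-selectin, the granule membrane receptor that binds leukocytes. At day 10 it was at 1.41, 3.60 and 6.97 CPM with miR-125b and at 0.583, 1.13 and 0.542 CPM with control, on 22 to 129 and 10 to 21 counts. The groups did not overlap, and replicate 3 was the highest miR-125b library and the lowest control. The log2 fold change was 2.41 ± 0.59 and missed the threshold (edgeR adjusted p = 0.0544). It passed with the replicate number as a block (2.23 ± 0.40, adjusted p = 0.00319), with DESeq2 (2.42, adjusted p = 0.00597) and without miR-125b replicate 2 (adjusted p = 0.0304), and was 1.74 without miR-125b replicate 3 (adjusted p = 0.388).

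At day 2 Selp was at 2.72, 3.45 and 4.17 CPM with miR-125b against 0.813, 1.73 and 1.27 with control, with no overlap and a log2 fold change of 1.44 ± 0.57 (edgeR adjusted p = 0.906). The day 13 libraries were at 0.671, 1.06 and 2.32 against 0.430, 1.04 and 0.727 CPM. In those labelled as withdrawn it was at 0.758, 1.52 and 3.41 against 0.509, 0.812 and 0.775 CPM. The groups overlapped in both day 13 conditions, yet within every replicate number the miR-125b library was the higher of its pair, in 12 of 12 pairs over the 4 conditions. These pairs are 3 replicate numbers seen in 4 conditions, so they cannot be counted as 12 independent pairs. How many of all genes have 12 of 12 pairs in 1 direction was not counted. Both limits hold for every count of pairs below. Selp overlaps 2 annotated noncoding genes on the other strand (Gm16587 and Gm16548), and whether the counting used strand is not given in the sources used here, so reads of either strand cannot be told apart.

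The neighbouring chemokine genes Ppbp and Pf4 had the level of replicate 2 in common, as described above. Ppbp at day 10 was at 51.7, 345 and 136 CPM with miR-125b and 19.7, 174 and 18.9 CPM with control. Each miR-125b library was above the control of the same number, but the groups overlapped because replicate 2 of the control exceeded replicates 1 and 3 of miR-125b. The log2 fold change of Ppbp was 1.33 ± 1.27 (edgeR adjusted p = 0.662), and 1.71 ± 0.42 with the replicate block, which passed (adjusted p = 0.0242). Without the block, the estimate was 0.41 without miR-125b replicate 2 and 3.20 without control replicate 2, positive in all 9 fits that left out libraries. Ppbp was higher with miR-125b in 12 of 12 pairs, which are not independent, as for Selp. Its log2 ratios within a pair were 0.99 to 2.85 at day 10 and 0.04 to 1.06 in the libraries labelled day 13.

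Pf4 at day 10 was at 1811, 2831 and 2489 CPM with miR-125b and 1483, 2735 and 1226 with control, which overlapped. At day 2 it was at 1585, 2618 and 2954 CPM against 1421, 2305 and 1667, again overlapping. Its log2 fold change was 0.41 ± 0.45 at day 2 and 0.39 ± 0.45 at day 10, and it did not pass in any condition. In the day 13 conditions the estimates were -0.32 ± 0.45 (labelled continued) and -0.15 ± 0.45 (labelled withdrawn). Each turned positive without replicate 2 of the control group (0.18 and 0.52), in fits that left replicate 2 of miR-125b unpaired.

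The assembly genes had lower estimates with miR-125b. Nbeal2 encodes a BEACH-domain protein needed for granule formation and is the only member with a 7-base miR-125b seed match. It was at 136, 170.4 and 131 CPM with miR-125b at day 10 and at 179, 210.0 and 207 CPM with control. All 3 miR-125b libraries lay below all 3 controls. The difference on the log2 scale was -0.45 ± 0.17 (edgeR adjusted p = 0.159), and -0.46 ± 0.10 with the replicate block, which passed (adjusted p = 0.0128).

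With the label of withdrawal, Nbeal2 was at 135, 193.1 and 162 CPM with miR-125b and 193.2, 258 and 234 with control. The highest miR-125b library and the lowest control library differed by under 1 CPM, without overlap. The estimate was a log2 fold change of -0.48 ± 0.16 (edgeR adjusted p = 0.359), and -0.49 ± 0.10 with the replicate block, which passed (adjusted p = 0.0201). At day 2 Nbeal2 was at 179, 209.9 and 148 CPM against 223, 246 and 221, also without overlap (-0.36 ± 0.16, edgeR adjusted p = 0.940). Under the label day 13 it was at 163, 218 and 161 against 155, 214 and 214 CPM, which overlapped, with an estimate of -0.10 ± 0.16.

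Over all tested genes with an annotated 3′ UTR, the 2019 with a 7-base seed match had median log2 fold changes for miR-125b of -0.051 at day 2, -0.018 at day 10, -0.015 in the libraries labelled day 13 and -0.070 in those labelled as withdrawn. The 9659 without a match had medians of 0.024, -0.0056, -0.0080 and 0.0029. The estimates for Nbeal2 were below both medians in all 4 conditions, and so were those for Vps33b and Thbs1. Vps33b and Thbs1 hold no 7-base match, but each holds 1 shorter match of 6 bases, complementary to bases 2 to 7. No member besides Nbeal2, Vps33b and Thbs1 holds such a 6-base match. The share of all genes with one was not counted, and the part of these matches in the estimates was not tested.

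Vps33b, a Sec1/Munc18-type protein that acts in granule sorting, was lower with miR-125b in 12 of 12 pairs, by 0.01 to 0.71 on the log2 scale. These pairs are not independent, as for Selp. For the label of withdrawal it was at 64.2, 80.7 and 65.7 CPM with miR-125b and at 64.5, 132 and 96.8 with control. The groups overlapped at replicate 1, where the pair was nearly equal. The log2 fold change was -0.48 ± 0.22 (edgeR adjusted p = 0.559), and -0.44 ± 0.11 with the replicate block, which passed (adjusted p = 0.0384). At day 10 it was at 65.5, 86.3 and 67.2 CPM against 80.3, 106 and 86.6 (-0.32 ± 0.22, and adjusted p = 0.0690 with the edgeR block). Its partner Vipas39 was within 30.1 to 37.5 CPM as group means, with estimates from -0.17 to 0.15 that did not pass.

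Thbs1 was the cargo gene with negative estimates in all 4 conditions. At day 2 it was at 55.3, 60.0 and 55.9 CPM with miR-125b and at 82.0, 98.1 and 97.0 CPM with control, without overlap. At the later times replicate 1 was far below the others, for example 3.37 CPM in the control labelled as withdrawn, where replicates 2 and 3 were at 138 and 181. With miR-125b the same condition was at 9.58, 40.2 and 17.4 CPM.

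Thbs1 therefore went in opposite directions within a condition: in both day 13 conditions replicate 1 was higher with miR-125b (log2 ratio 1.38 and 1.51) and replicates 2 and 3 were lower (-0.98 to -3.37). The log2 fold changes were -0.69 ± 1.08, -1.50 ± 1.11, -1.39 ± 1.10 and -2.26 ± 1.14 for day 2, day 10, day 13 and withdrawal as labelled, none past the test (lowest edgeR adjusted p = 0.540). Thbs1 overlaps a long noncoding gene on the other strand (Gm29233), with the same limit on strand as for Selp.

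Vwf was at 18.6, 22.1 and 29.5 CPM with miR-125b and 12.7, 17.9 and 19.7 with control at day 2, and at 10.8, 15.3 and 19.996 against 5.88, 13.5 and 12.7 at day 10. The miR-125b library was the higher in all 6 of these pairs. In the libraries labelled day 13 it was at 3.98, 12.6 and 9.50 against 4.06, 16.997 and 14.6 CPM, and in those labelled as withdrawn at 6.82, 14.6 and 6.56 against 9.16, 23.3 and 21.3. There the miR-125b library was the lower in all 6 pairs. The log2 fold changes were 0.48 ± 0.50, 0.53 ± 0.50, -0.45 ± 0.51 and -0.95 ± 0.51, none of which passed.

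Mmrn1 and F13a1 had wide errors in the model without the block, which leaves the differences between replicate numbers in the error. Mmrn1 at day 10 was at 18.1, 83.7 and 41.1 CPM with miR-125b and 23.2, 83.2 and 29.4 with control, which overlapped, with a log2 fold change of 0.08 ± 0.91. F13a1 at day 10 was at 8.24, 11.4 and 27.3 CPM with miR-125b and 1.51, 6.92 and 14.9 with control, overlapping, with a fold change of 1.01 ± 1.04. It was higher with miR-125b in all 6 pairs at days 2 and 10, and in the day 13 conditions only in replicate 1 (log2 ratio 1.04 and 1.07), where the control was at 0.955 and 1.21 CPM on 20 and 19 counts. F13a1 overlaps 2 antisense genes (Gm49144 and Gm30489), with the same limit on strand.

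**Figure D3:**
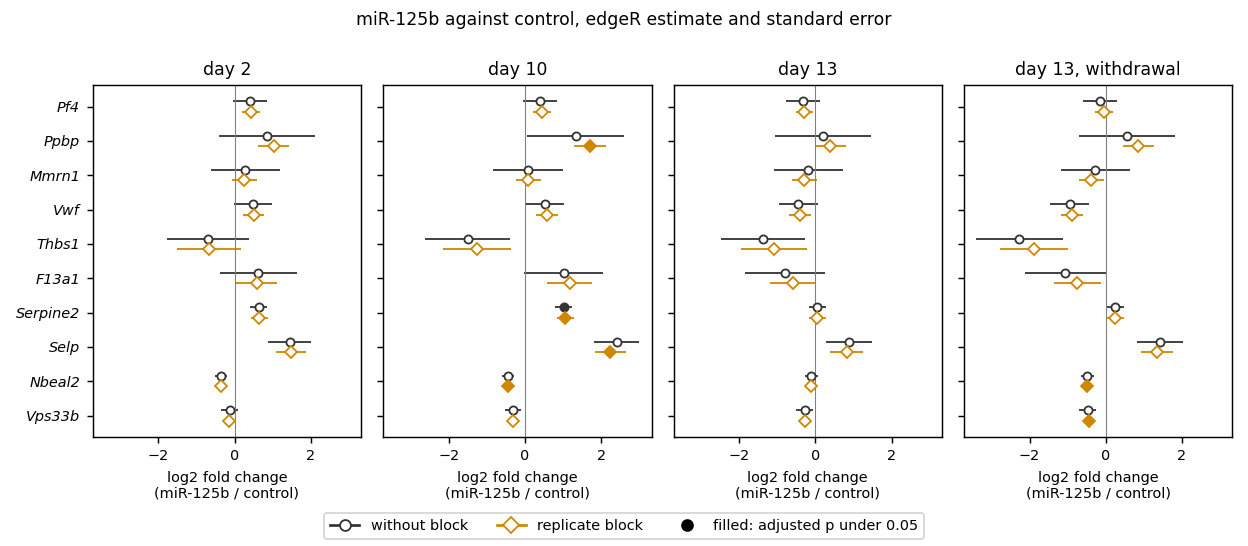
Log2 fold change of miR-125b against control with its standard error for the 10 alpha granule genes in each condition, without (circles) and with the replicate number as a block (diamonds); filled symbols have an edgeR adjusted p under 0.05. Serpine2 at day 10 is filled in both, and the block adds Selp, Ppbp and Nbeal2 at day 10 and Nbeal2 and Vps33b in the libraries labelled as withdrawn.

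Counted over the set, the share of members called was read against all tested genes. Without the block, 0 of 10 members passed at day 2 and 0 of 10 in the libraries labelled day 13, where edgeR called 0.0% of all genes in each, and 0 of 10 in those labelled as withdrawn, where it called 0.119%. At an unadjusted p under 0.05 the counts in those conditions were 3, 0 and 3 members, where 5.28%, 2.89% and 8.55% of all genes had one, and DESeq2 called 0 members in each. At day 10, 3 members had an unadjusted p under 0.05, against 17.4% of all genes. With the replicate block 0 of 10 members passed at day 2 (0.0% of all genes), 4 of 10 at day 10 (8.63%), 0 of 10 labelled day 13 (0.0149%) and 2 of 10 labelled as withdrawn (1.86%). Groups of 3 did not overlap for 4 members at day 2 (Selp and Serpine2 above, Thbs1 and Nbeal2 below), against 12.3% of all genes, and for 3 at day 10 (Selp and Serpine2 above, Nbeal2 below), against 19.7%. Labelled day 13, they overlapped for all 10 members (8.52% of all genes did not overlap), and in those labelled as withdrawn Nbeal2 alone did not overlap (11.4%).

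The members' median log2 fold change was 0.44 at day 2 and 0.46 at day 10, with 7 of 10 positive at each time. It was -0.24 labelled day 13 and -0.38 labelled as withdrawn, with 3 of 10 positive in each. The medians of all tested genes were 0.0039, 0.0042, -0.016 and -0.012. With control replicate 1 left out the day 10 median was 0.25, with control replicate 2 left out it was 0.83, and the day 2 median was 0.28 without control replicate 1. Leaving out control replicate 2 moved the 2 day 13 medians to 0.040 and 0.022, so their sign without the block rests on that library in each condition. All these fits keep the miR-125b library of the same number, which is then unpaired. They therefore do not show how a paired comparison depends on the library left out.

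**Figure D4:**
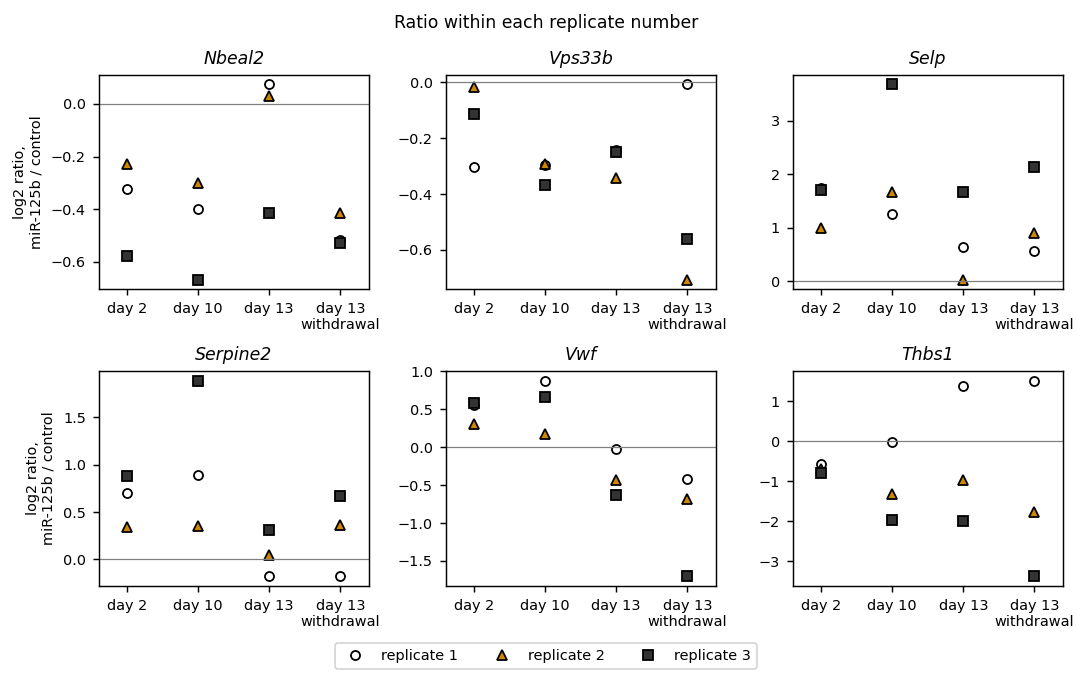
Log2 ratio of miR-125b over control CPM within each replicate number for 6 of the genes; points above 0 are higher with miR-125b. Vps33b lies below 0 and Selp above 0 in all 12 pairs, Vwf is above 0 at days 2 and 10 and below 0 in both day 13 conditions, and Thbs1 replicate 1 differs in sign from replicates 2 and 3 in the day 13 conditions.

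The second comparison asked how the granule genes differed between day 10 and day 2 of doxycycline. None of the 10 passed in control (edgeR called 0.0% of all genes) or with miR-125b (0.224% of all genes). The counts at an unadjusted p under 0.05 were 0 in both (6.75% and 14.9% of all genes), and DESeq2 called 0 in both. The members' median log2 fold change was -0.45 in control and -0.20 with miR-125b, with 2 of 10 positive in each.

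F13a1 had the largest difference in control. Its 3 libraries were at 17.1, 16.5 and 24.3 CPM at day 2 and at 1.51, 6.92 and 14.9 CPM at day 10, without overlap, a log2 fold change of -1.31 ± 1.04. With miR-125b it went from 24.9, 22.9 and 41.6 CPM to 8.24, 11.4 and 27.3, which overlapped (-0.93 ± 1.02). Vwf was -0.65 ± 0.50 in control and -0.60 ± 0.50 with miR-125b, Mmrn1 -0.48 ± 0.91 and -0.68 ± 0.91, and Nbeal2 -0.21 ± 0.16 and -0.30 ± 0.16. Nbeal2 in control did not overlap either, at 221 to 246 CPM at day 2 and 179 to 210 at day 10. Thbs1 with miR-125b was at 55.3 to 60.0 CPM at day 2 and 11.1 to 32.1 at day 10, without overlap (-1.22 ± 1.11). The share of all genes without overlap between these days was not counted, so no result about the members is drawn from it. The difference between the 2 arms, tested as an interaction, was called for 0.0% of all genes and for none of the 10 members, with none at an unadjusted p under 0.05 (6.86% of all genes). The estimates were 0.97 ± 0.81 for Selp and 0.39 ± 0.31 for Serpine2.

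The third comparison set the libraries labelled as withdrawn against those labelled as continued at day 13. None of the 10 members passed in control or with miR-125b, where edgeR called 0.0% of all genes in each arm, and the interaction with miR-125b also called 0.0%. No member had an unadjusted p under 0.05, against 2.65% of all genes in control, 2.21% with miR-125b and 1.68% for the interaction, and DESeq2 called 0 members. With miR-125b, Serpine2 was at 148, 169.7 and 154 CPM as continued and at 199.7, 223 and 197 CPM as withdrawn, without overlap, an estimate of 0.40 ± 0.22. The share of all genes without overlap between these labels was not counted. In control, Vwf went from 4.06, 16.997 and 14.6 CPM to 9.16, 23.3 and 21.3 CPM, higher in each replicate number but overlapping as groups (0.60 ± 0.50). The interaction estimates were -0.38 ± 0.23 for Nbeal2 and -0.88 ± 1.54 for Thbs1. Arid3a went against these labels, as given above.

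The other genes of the granule were taken from lists. Of 31 other alpha granule cargo and membrane genes, such as Srgn, Tgfb1 and the integrin genes Itga2b and Itgb3, 20 were tested, and 0 were called higher or lower in any of the 4 miR-125b comparisons. Without the block edgeR called 0.0% to 0.872% of all genes in these comparisons. In the libraries labelled day 13, 0 of these 20 had a positive log2 fold change (median -0.27), where 46.2% of all genes were positive, and in those labelled as withdrawn 3 of 20 did (median -0.29). At days 2 and 10 the counts were 14 and 13 of 20, with medians of 0.076 and 0.12. The summed level of the list had medians of 3335, 5159 and 4394 CPM in replicates 1, 2 and 3. Its genes thus share replicate differences and are not independent, so these counts of signs are descriptions. With the replicate block 1 of the 20 was called, Treml1, a receptor of the granule membrane, which fell in the libraries labelled as withdrawn (-1.20 ± 0.29, edgeR adjusted p = 0.0477). The block called 1.86% of all genes in that comparison and 8.63% at day 10. Of 24 genes for granule formation and release, 22 were tested and 0 were called without the block, where 0.0% to 0.872% of all genes were. With the replicate block, 2 of the 22 were called at day 10, against 8.63% of all genes, and 2 labelled as withdrawn, against 1.86%. At day 10 the SNARE gene Stx11 rose (0.61 ± 0.14, edgeR adjusted p = 0.0148) and the SNARE gene Vamp8 fell (-0.47 ± 0.11, adjusted p = 0.0121). Labelled as withdrawn, the syntaxin gene Stx12 rose (0.38 ± 0.10, edgeR adjusted p = 0.0439) and Unc13d, a priming factor of granule release, fell (-0.32 ± 0.08, adjusted p = 0.0336). Genes called with the block alone were named after their values were seen. Of this list, Gfi1b, a megakaryocyte transcription factor, and Vipas39 had estimates at day 10 of -0.21 ± 0.10 (edgeR adjusted p = 0.280) and -0.17 ± 0.14 (0.583).

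Dense granule genes, the neighbouring granule class that stores serotonin and nucleotides, were tested for 17 of 17, and 0 were called with or without the block. In the miR-125b comparisons edgeR called 0.0% to 0.872% of all genes without the block and 0.0% to 8.63% with it. Of 19 megakaryocyte surface and cytoskeletal genes tested, Mrvi1, which encodes a substrate of the cGMP-dependent kinase, rose at day 10 (0.62 ± 0.13, edgeR adjusted p = 0.0329) and none fell. Over all genes 0.872% were called at day 10 and 0.119% in the libraries labelled as withdrawn. Of 15 transcription factors of the lineage, Arid3a fell at day 10 and in the libraries labelled as withdrawn, and Gata1 had estimates from -0.11 to -0.45 that did not pass. With the replicate block, 5 of the 19 surface genes fell in the libraries labelled as withdrawn, where 1.09% of all genes fell. In edgeR's test they included the von Willebrand receptor subunit genes Gp9 (-0.68 ± 0.15, adjusted p = 0.0255), Gp5 (-0.62 ± 0.14, 0.0325), Gp1bb (-0.84 ± 0.20, 0.0331) and Gp1ba (-0.66 ± 0.16, 0.0388), and the fifth was Treml1, which is in this list as well as in that of granule membrane genes.

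Markers of other cells that can express these genes were measured in the same libraries. In bulk samples, fewer cells of a type and less RNA per cell cannot be told apart. Endothelial cells make Vwf and Selp: of 12 listed markers, 5 were under 1 CPM in all 24 libraries, among them Cdh5 (no more than 7 counts) and Emcn (0), while Tek reached 21.9 CPM and Kdr 6.77. The summed level of the list was 140 to 241 CPM, of which Pecam1, which megakaryocytes also express, made 120 to 196. The endothelial sum was 215 to 241 CPM in replicate 2 and 140 to 202 in replicates 1 and 3. Fibroblasts make Thbs1 and Serpine2: 9 of 12 markers were under 1 CPM in all libraries, with Dcn, Lum and Postn at 0, while Col1a2 reached 13.0 CPM. The summed list was 4.52 to 27.8 CPM in replicate 2, 25.7 to 57.1 in replicate 3 and 40.5 to 66.3 in replicate 1. Macrophages make F13a1 and Thbs1: 6 of 12 markers were under 1 CPM in all libraries, with C1qa at no more than 1 count and Vcam1 at 0, while Lyz2 was at 2.16 to 28.03 CPM and Cd68 at 2.29 to 6.45. The summed macrophage list was 11.6 to 40.1 CPM.

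Other marker lists did move with the libraries. The mast cell and basophil list summed to 423 to 1353 CPM in replicate 1, 213 to 489 in replicate 2 and 275 to 612 in replicate 3, and the megakaryocyte surface list to 3492 to 5068, 4861 to 6836 and 4190 to 5715 CPM. The erythroid list had medians of 538, 347 and 550 CPM in replicates 1, 2 and 3. Ppbp, Pf4 and Mmrn1 were thus highest in the replicate with the highest megakaryocyte list and the lowest median of the mast cell and erythroid lists. With miR-125b, the granulocyte precursor gene Mpo rose at day 10 (5.10 ± 0.85, edgeR adjusted p = 0.0150) and in the libraries labelled as withdrawn (6.93 ± 0.97, adjusted p = 0.00435), at 0.0478 to 28.5 CPM over the 24 libraries. The 12 granulocyte markers summed to 30.4 to 98.9 CPM with miR-125b at day 10 and 5.63 to 31.3 with control. Of these 12, 6 were under 1 CPM in all 24 libraries (Elane, Ltf, Camp, Ngp, Ly6g and Csf3r). The part of these cell types in the values of the 10 granule genes was not tested.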

How the data were processed

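RNA-seq of total RNA was done on 24 libraries in 8 groups of 3. The deposited values are read counts per gene, made by the authors with fastp, HISAT2 2.0.5 and featureCounts on the mm10 genome, per the submitters' processing notes; the annotation release and the use of strand are not given in the sources used here. Column names matched the sample descriptions for all 24 libraries. Total counts ran from 14694900 to 23755245 per library, so counting error is small except for the lowest genes, such as Selp.

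Groups were taken from the sample labels. edgeR 4.0.16 (R 4.3.3) was run on all 24 libraries with 1 coefficient per group, TMM scaling, its expression filter (13419 of 47069 identifiers kept) and the robust quasi-likelihood test, with 16 residual degrees of freedom. Adjusted p-values are Benjamini-Hochberg over all kept genes, with a threshold of 0.05, and errors of fold changes are standard errors from that test. The 10 members were named by the choice of genes; Gata1, Arid3a, Gfi1b and Vipas39 were always given, up to 4 genes of each other list were named where they passed the test, and genes were named for likeness where they were among the 10 highest correlations with the members' mean. The members and lists were chosen with earlier results of these data known. Log2 CPM used a prior count of 2.

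Same-numbered libraries of different groups deviated together in 84 of 84 pairs (correlation of deviations from group means 0.163 to 0.781). The numbers thus pair the libraries, although the labels do not say what they share. The median for different numbers was -0.304, which follows from removing the group means and is not separate evidence. Adding the replicate number to the model as a block left 14 residual degrees of freedom and lowered the common dispersion from 0.0591 to 0.0169. No replicate pair of a group agreed within counting noise (chi-square per degree of freedom 11.6 to 109). Alternatives were the block, DESeq2 1.42.0, RLE factors, no filter on low counts, the edgeR 4 estimate, only the groups compared, and leaving out each library or each replicate number. The edgeR fit without the block and DESeq2 were run on counts simulated for the day 10 comparison. The simulation held no replicate effect, so it does not check the block or the effect of the pairing. Promoter and microRNA sequences are from RefSeq (GRCm38.p6) and gene positions from GENCODE M21.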

Additional observations from a re-analysis of the deposited data

Results flagged for a closer look

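Vwf and Mmrn1 were flagged because all 3 replicate pairs of one condition went one way and all 3 of another the opposite way. For Vwf, the log2 ratios of miR-125b over control within replicates 1 to 3 were 0.55, 0.31 and 0.58 at day 2 and 0.88, 0.18 and 0.66 at day 10. They were -0.03, -0.43 and -0.63 in the libraries labelled day 13 and -0.43, -0.68 and -1.70 in those labelled as withdrawn. The pair of replicate 1 labelled day 13 was nearly equal. The miR-125b effect on Vwf labelled day 13 was -0.93 ± 0.71 (SE, log2 scale) relative to day 2 and -0.98 ± 0.71 relative to day 10. Labelled as withdrawn, it was -1.43 ± 0.71 relative to day 2 and -1.47 ± 0.71 relative to day 10.

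Tested as interactions, which were added after the data were seen, these 4 differences did not pass in edgeR (adjusted p = 0.996, 0.582, 1.00 and 0.423 in that order). With the replicate block the Vwf differences had smaller errors, at -0.91 ± 0.40, -0.98 ± 0.40, -1.39 ± 0.39 and -1.47 ± 0.40 in the same order. The lowest edgeR adjusted p with the block was 0.0677, for withdrawal as labelled against day 10. DESeq2 gave an adjusted p of 0.249 there. For Mmrn1, the ratios were 0.18, 0.30 and 0.32 at day 2, -0.46, -0.08 and -0.51 labelled day 13 and -0.72, -0.17 and -0.32 labelled as withdrawn. The differences of Mmrn1 from day 2 were -0.46 ± 1.28 and -0.55 ± 1.28, with edgeR adjusted p-values of 0.996 and 1.00. With the replicate block they were -0.54 ± 0.46 and -0.63 ± 0.46 (edgeR adjusted p = 0.739 and 0.804). These are 6 differences among 10 genes and 4 conditions, each on 3 pairs, and groups of 3 are too small for a test of single outlying libraries. The rule was applied to the 10 members alone. How many of all tested genes meet it was not counted, so the flag does not set Vwf and Mmrn1 apart from other genes.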

How the results depend on the processing

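At day 10, 1 member passed the test in the analysis reported. The number was 4 with the replicate block (Serpine2, Selp, Ppbp and Nbeal2), 2 with DESeq2, 2 with the edgeR 4 estimate, 0 without the filter on low counts and 0 with only the groups compared, and 0 to 2 when libraries or replicate numbers were left out. In the libraries labelled as withdrawn it was 2 with the replicate block (Nbeal2 and Vps33b) and 0 without it. The block changed no other member's call, and RLE factors changed none. Of 61 fold changes reported for members, 47 had the same sign under every setting. All turns of sign came from leaving out libraries, over which the lowest and highest log2 fold changes were as follows. At day 2 Mmrn1 ranged from -0.081 to 0.61, and at day 10 from -0.61 to 0.86. Labelled day 13, Pf4 ranged from -0.64 to 0.18, Ppbp from -1.13 to 2.07, Serpine2 from -0.076 to 0.18, Nbeal2 from -0.26 to 0.049, Mmrn1 from -1.68 to 1.00 and F13a1 from -2.03 to 0.99. Labelled as withdrawn, Pf4 ranged from -0.45 to 0.52, Ppbp from -0.87 to 2.63, Mmrn1 from -1.43 to 0.66 and F13a1 from -1.66 to 0.33. The difference of Mmrn1 from day 2 ranged from -1.95 to 0.73 labelled day 13 and from -1.70 to 0.38 labelled as withdrawn. These extremes came mostly from leaving out replicate 2 (for F13a1, replicate 3) of a single arm, which leaves unpaired libraries; a group with 2 libraries left was assumed to vary like the others. The members' median share of variance between replicate numbers was 44.7% also with RLE factors and with a smaller prior count. Depth limits Selp, at 8 to 129 counts per library. The cause of these changes was not tested.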
